A study of Mus musculus with 12 samples.

Results

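The genes described here encode the machinery that copies DNA and supplies its building blocks: origin recognition and helicase subunits, DNA polymerases and primase, the sliding clamp with its loader, single-strand binding proteins, flap processing and ligation enzymes, enzymes of deoxynucleotide supply, and factors that rebuild chromatin and copy DNA methylation behind the fork. The list held 34 genes, taken by name for their function, with earlier results of these data known. Of these, 33 matched a probe of the array by accession (Gins1 did not) and 32 were tested, since both probes of Dut, the dUTPase, were well above background on at most 1 array. The whole array held 37246 probes, of which 31168 were tested, covering 16998 named genes.

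Liver RNA was measured at 0, 1.5, 12 and 24 h after a 2/3 partial hepatectomy, an operation that takes out most of the liver and lets the rest regrow, in male C57BL/6 mice aged 6 weeks, with 3 mice per time point by the labels. The labels name no allele or drug, and no sham-operated group was analysed here, so time after surgery cannot be told apart from the operation or the hour of collection, which the labels do not give. The labels do not state that the mice of different time points were different animals. Each value below is the log2 of the processed signal of a gene's brightest probe after the 75th percentile of the same array was subtracted, so it is a relative level of that probe and cannot be compared between genes.

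DNA replication starts where the origin recognition complex sits. There a helicase, made of the MCM ring, Cdc45 and the GINS complex, opens the duplex, primase and polymerase alpha lay down primers, and polymerases epsilon and delta extend the leading and lagging strands while held by the sliding clamp. Many of these genes are known targets of the E2F transcription factors and are transcribed most at the border of G1 and S phase. In the regenerating mouse liver, hepatocyte DNA synthesis is known to peak later than the last time sampled here.

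The array of 24 h replicate 2 stood apart before any comparison. It was alone in its scan, the 75th percentile of its signal was 6018 against 428 to 584 on the other 11 arrays, 540 of its spots were marked as outliers against 19 to 40, and its median correlation with the other 24 h arrays was 0.925, where every other array reached 0.955 to 0.988 with its own time point. Counts of genes that passed the test are therefore given with and without it, for lists and roles as well as for the 32 genes. By the file headers the arrays fell into 4 scans, and the 0 h and 12 h arrays shared none: scan 1 held the 3 arrays of 0 h and 1.5 h replicate 1, scan 2 held 1.5 h replicates 2 and 3 with 12 h replicates 1 and 2, and scan 3 held 12 h replicate 3 with 24 h replicates 1 and 3. The 4 arrays of scan 2 had 82.0 to 85.4% of their spots well above background, against 62.8 to 72.4% on the other 8. All 8 hepatocyte genes (Alb, Apoa1, Ttr, Tat, Cps1, Hnf4a, Cyp2e1, Serpina1a) were measured, with a mean log2 signal over the 8 of 7.03 to 7.13 on the 0 h arrays. This mean gives no level of a single gene.

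**Figure D1:**
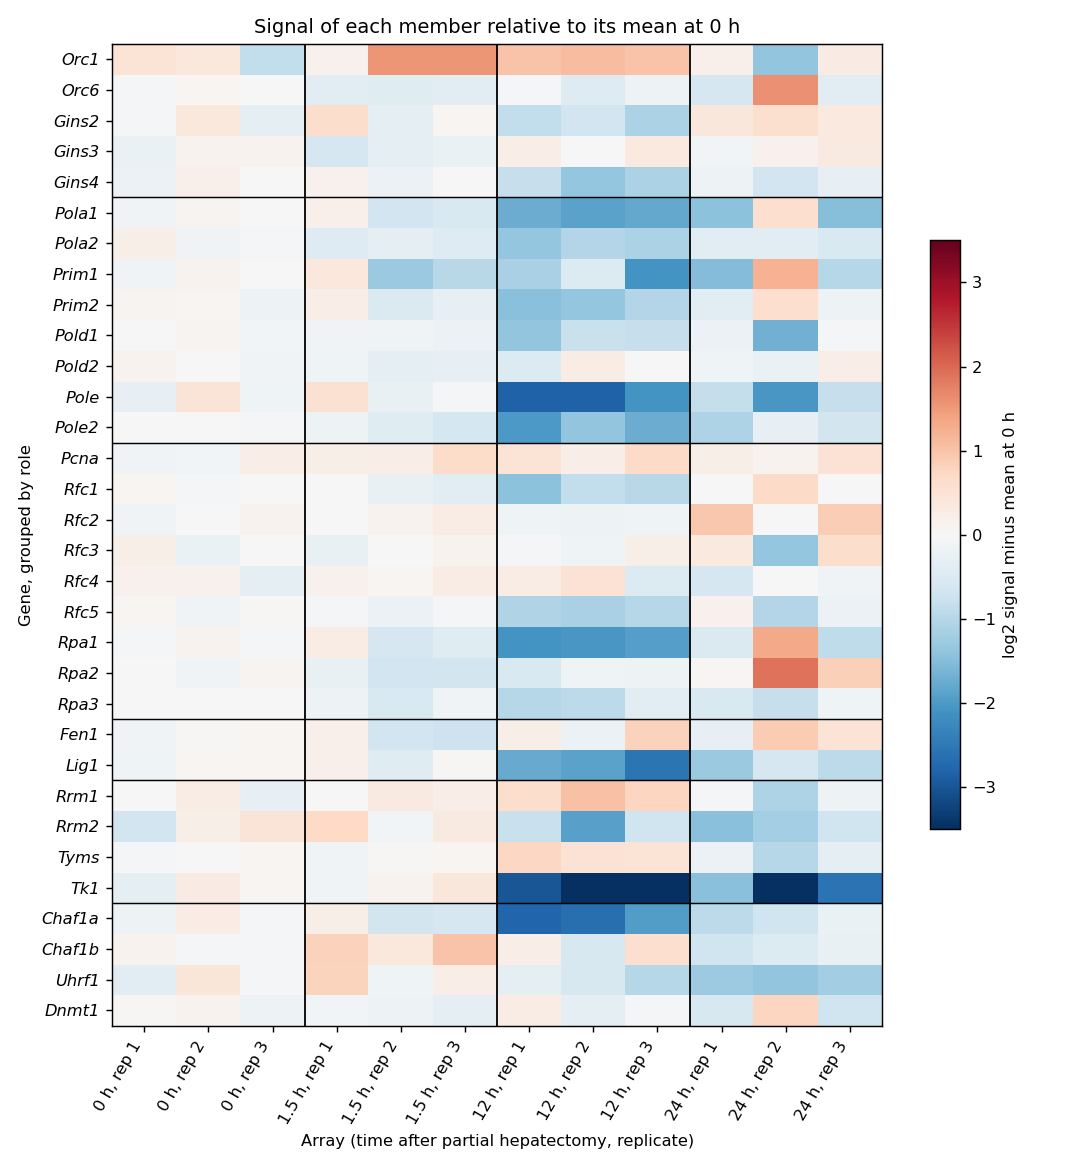
Log2 signal of the 32 tested genes (rows, grouped by role, with lines between roles) on the 12 arrays (columns, by time after partial hepatectomy), relative to each gene's mean at 0 h. Blue is lower and red higher than at 0 h. The 3 columns of 12 h are mostly blue, with Tk1 the darkest at -3.40 on average. The column of 24 h replicate 2 differs from its neighbours in genes that include Orc6, Prim1, Pola1, Pold1, Rpa1, Rpa2, Rfc3 and Dnmt1.

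At 12 h, 12 of the 32 genes fell below their 0 h level and 0 rose, beside 9.84% and 7.34% of all named genes. Without 24 h replicate 2 the counts were 17 and 2, beside 19.8% and 29.4%. The genes that fell were Tk1, Pole, Chaf1a, Lig1, Rpa1, Pola1, Pole2, Prim2, Pola2, Gins4, Rfc1 and Rfc5, by 10.53-fold for Tk1, which encodes the cytosolic thymidine kinase that salvages thymidine, and by 2.08-fold for Rfc5. The 12 h and 0 h arrays did not overlap for 22 of the 32 genes, 19 lower and 3 higher at 12 h, beside 25.2% and 36.9% of named genes. The median of the 32 log2 fold changes was -0.82, where that of the named genes was 0.27. The test was limma's moderated test, two-sided, with Benjamini-Hochberg adjustment over the 31168 probes and a threshold of 0.05. Leaving out 0 h replicate 1, 2 or 3 gave 7, 6 and 7 falls, leaving out 12 h replicate 1 or 2 gave 7, and normexp background correction gave 1. Over the alternatives, Pola1 passed in 11 of 20 and Rfc5 in 11 of 22, Rpa1, Prim2 and Rfc1 in 16 of 22 and Gins4 in 17 of 22, while Pole2 passed in 18 of 20, and Lig1, Pola2, Pole, Chaf1a and Tk1 passed in at least 20 of 22.

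The 12 h arrays were also set against 1.5 h arrays of the same scan. Within scan 2, both 12 h arrays lay below both 1.5 h arrays for 21 of the 32 genes and above them for 5, whereas 29.4% of named genes lay below and 36.0% above. The 12 genes that fell against 0 h were among the 21, with differences between -3.61 and -0.80. Both 12 h arrays of this set had also entered the comparison with 0 h that picked the 12, so it is no separate test of them. With scan as a block in the model, the 12 kept their sign. Of them 4, Tk1 (-3.73), Pole (-2.16), Chaf1a (-1.88) and Rpa1 (-1.29), kept an adjusted p under the threshold. As the 0 h and 12 h arrays share no scan, this model ties them only through the 1.5 h arrays. Of those only 1.5 h replicate 1 lay in scan 1 with the 0 h arrays, so the tie rests on that array. The array of 24 h replicate 2 enters the comparison of 12 h with 0 h only through the pooled spread, and without it 19.8% of named genes fell and 29.4% rose. The 7 genes of the 32 that passed only without it were Gins2, Pold1, Prim1, Rpa3 and Rrm2, which fell, and Rrm1 and Tyms, which rose.

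**Figure D2:**
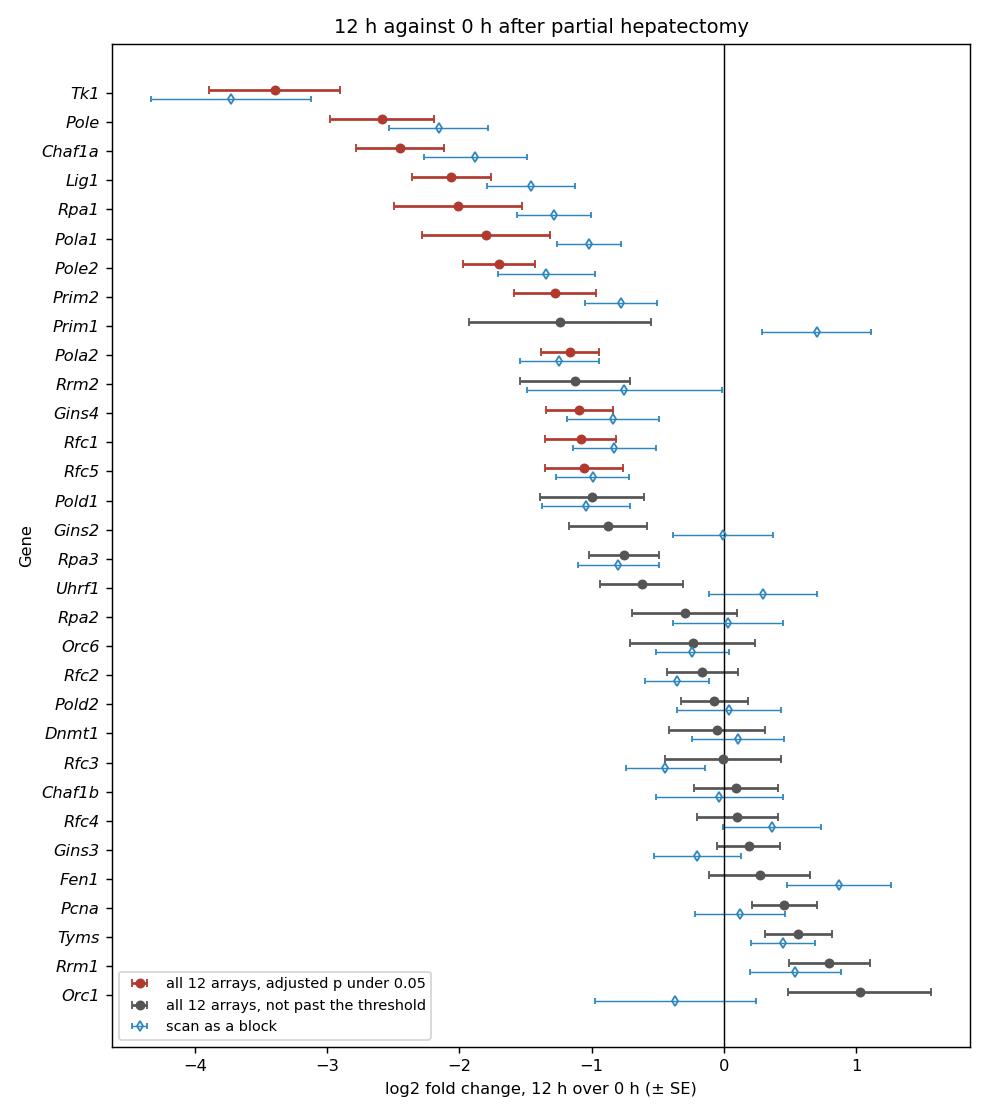
Log2 fold change of each of the 32 genes at 12 h over 0 h, with its standard error. Filled circles are the model on all 12 arrays (red where the adjusted p was under 0.05) and open diamonds the model with scan as a block. The 12 red genes run from Tk1 at -3.40 to Rfc5 at -1.06, and their 12 diamonds also lie left of 0. The diamonds tie 12 h to 0 h only through the 1.5 h arrays, of which replicate 1 alone lay in scan 1.

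The promoters of these genes are shown because 12 members fell together. RefSeq windows of 300 bases on GRCm38.p6, from 250 bases before a start of the gene to 50 after, were at hand for 28 of the 34 genes. Some genes have several windows, and a word was counted for a gene if any of its windows held it. The E2F-type words searched on both strands were TTTGGCGC, TTTCCCGC, TTTCGCGC and TTTGCCGC. They were found for 9 of the 28 genes (32.1%: Dnmt1, Gins3, Lig1, Orc1, Pola1, Pold1, Pole2, Rfc3, Uhrf1). This stands against 2.60% of all 27025 genes with a window and 3.77% of the 13510 named genes tested that have one. The share was 33.3% both among the 9 genes that fell at 12 h and have a window and among the 18 other tested members with one. The word CCAAT, on both strands, was found for 60.7% of the members with a window, 41.1% of all genes and 42.4% of the named genes tested. The GC box GGGCGG, which can share its last bases with the reverse complement of TTTCCCGC, was in 78.6%, 38.2% and 56.6% of the same sets. TTTGAA, the core of the cell cycle homology element, was in 14.3%, 20.2% and 16.6%. A match is only a run of letters, not a shown binding site. Below are 3 windows with an E2F-type word, all of genes that fell at 12 h (Lig1, chr7:13278576-13278875, plus strand; Pola1, chrX:93632106-93632405, minus strand; Pole2, chr12:69228141-69228440, minus strand). They are followed by the windows of 3 nucleotide supply genes without one: Tk1 (chr11:117825965-117826264, minus strand), which fell most, Tyms (chr5:30073576-30073875, minus strand) and Rrm1 (chr7:102441445-102441744, plus strand). Tyms and Rrm1 are shown because they fell at 24 h against 12 h. Neither passed at 12 h against 0 h with all arrays. Each window reads 5′ to 3′ along the gene's strand, and capitals mark E2F-type words and CCAAT or its reverse complement. Lig1 has 3 windows, and that shown was taken because it holds an E2F-type word.
Lig1: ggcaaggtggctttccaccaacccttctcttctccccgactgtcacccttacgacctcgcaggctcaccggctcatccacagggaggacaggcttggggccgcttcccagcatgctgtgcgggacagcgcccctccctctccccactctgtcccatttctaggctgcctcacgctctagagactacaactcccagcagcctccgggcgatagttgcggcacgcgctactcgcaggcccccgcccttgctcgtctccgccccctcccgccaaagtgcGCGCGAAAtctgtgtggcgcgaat
Pola1: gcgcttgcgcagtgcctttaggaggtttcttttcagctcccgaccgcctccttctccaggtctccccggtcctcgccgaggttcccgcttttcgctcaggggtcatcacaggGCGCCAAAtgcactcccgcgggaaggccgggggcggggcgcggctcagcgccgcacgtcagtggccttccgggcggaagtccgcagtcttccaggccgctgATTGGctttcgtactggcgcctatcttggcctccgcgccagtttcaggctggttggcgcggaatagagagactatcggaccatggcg
Pole2: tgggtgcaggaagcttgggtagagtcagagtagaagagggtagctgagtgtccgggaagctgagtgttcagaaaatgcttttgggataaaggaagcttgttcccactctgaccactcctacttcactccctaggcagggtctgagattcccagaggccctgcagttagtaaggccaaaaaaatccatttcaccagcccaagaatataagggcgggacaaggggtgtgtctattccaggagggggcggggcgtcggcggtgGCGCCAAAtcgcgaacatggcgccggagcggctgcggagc
Tk1: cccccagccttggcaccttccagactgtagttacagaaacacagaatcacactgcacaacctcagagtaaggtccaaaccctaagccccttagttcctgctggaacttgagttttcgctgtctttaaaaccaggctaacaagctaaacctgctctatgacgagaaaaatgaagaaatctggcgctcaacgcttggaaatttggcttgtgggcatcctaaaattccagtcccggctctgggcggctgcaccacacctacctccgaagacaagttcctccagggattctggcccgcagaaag
Tyms: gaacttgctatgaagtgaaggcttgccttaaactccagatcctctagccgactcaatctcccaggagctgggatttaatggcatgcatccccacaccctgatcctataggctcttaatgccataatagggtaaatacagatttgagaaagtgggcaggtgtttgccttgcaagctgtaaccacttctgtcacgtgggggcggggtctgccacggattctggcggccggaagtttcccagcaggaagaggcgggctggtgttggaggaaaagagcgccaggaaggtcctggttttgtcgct
Rrm1: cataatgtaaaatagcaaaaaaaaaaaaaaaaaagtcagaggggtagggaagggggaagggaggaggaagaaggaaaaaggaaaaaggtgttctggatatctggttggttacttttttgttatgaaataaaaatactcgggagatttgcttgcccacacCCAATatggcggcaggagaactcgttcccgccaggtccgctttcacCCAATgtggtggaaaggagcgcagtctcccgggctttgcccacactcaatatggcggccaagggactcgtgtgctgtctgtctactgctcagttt
In Lig1 and Pole2 the E2F-type word starts at base 27 and at base 11 of the transcript, and in Pola1 at base -138, before the start. The words of Pole2 and Pola1 are the same letters, GCGCCAAA, and that of Lig1 is GCGCGAAA. The windows of Tk1 and Tyms hold neither word, and that of Rrm1 holds CCAAT at -91 and at -45.

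Polymerase and primase genes had the largest share of falls among the 6 roles at 12 h, with 5 of 8 passing the test, and 7 of 8 without 24 h replicate 2. Beside the counts by role, here and below, 9.84% of named genes fell with all arrays and 19.8% without 24 h replicate 2. Pole encodes the catalytic subunit of polymerase epsilon, which extends the leading strand. Its signal in replicates 1, 2 and 3 was -1.97, -1.24 and -1.82 at 0 h, -1.15, -1.93 and -1.73 at 1.5 h, -4.51, -4.50 and -3.78 at 12 h, and -2.52, -3.71 and -2.48 at 24 h. All 12 h arrays lay below every other array, with 24 h replicate 2 the nearest of these. The 12 h level was 6.00-fold below that at 0 h (log2 fold change -2.59 ± 0.40 SE, limma adjusted p = 0.00194). Over 22 alternatives the Pole estimate ran from -3.10 to -0.70. Pole2, its accessory subunit, had -2.66, -2.65 and -2.70 at 0 h, -2.85, -3.10 and -3.29 at 1.5 h, -4.67, -4.04 and -4.40 at 12 h, and -3.75, -2.97 and -3.32 at 24 h. The 0 h arrays of Pole2 spread by only 0.03 (SD, n = 3), and the fall at 12 h was 3.25-fold (-1.70 ± 0.27, limma adjusted p = 0.00242). Estimates for Pole2 over 20 alternatives ran from -2.24 to -0.16. Its 12 h replicate 3 was not well above background, as was also the case for Pola1, Gins2 and Prim1.

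Pola1 and Pola2, the catalytic and the accessory subunit of polymerase alpha, both fell at 12 h. Pola1 had -2.40, -2.18 and -2.28 at 0 h, -2.11, -2.95 and -2.83 at 1.5 h, -4.01, -4.15 and -4.09 at 12 h, and -3.71, -1.69 and -3.77 at 24 h. The 3 arrays of 12 h agreed within 0.07 (SD), and 24 h replicates 1 and 3 stayed near them while replicate 2 lay above every 0 h array. The fall at 12 h was 3.48-fold (-1.80 ± 0.49, limma adjusted p = 0.0312). Pola1 did not pass when any 1 array of 0 h or 12 h was left out, and its estimates over the 20 alternatives ran from -2.29 to -0.17. Pola2 was bright on every array, with 1.05, 0.70 and 0.76 at 0 h, 0.39, 0.52 and 0.39 at 1.5 h, -0.51, -0.18 and -0.28 at 12 h, and 0.47, 0.48 and 0.30 at 24 h. It fell 2.24-fold at 12 h (-1.16 ± 0.22, limma adjusted p = 0.00564), and its 1.5 h and 24 h arrays all lay between those of 0 h and 12 h.

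Prim2, the large primase subunit, fell 2.42-fold at 12 h, with a log2 level of -2.51 ± 0.23 at 12 h and -1.24 ± 0.15 at 0 h (SD, n = 3 each; limma adjusted p = 0.0197). Prim1, the catalytic primase subunit, was below all 0 h arrays on all 12 h arrays, but its 12 h values of -3.52, -2.88 and -4.50 against -2.51, -2.27 and -2.41 at 0 h did not pass (-1.24 ± 0.69, limma adjusted p = 0.229). Its 1.5 h arrays split by scan, at -2.04 in scan 1 and at -3.71 and -3.38 in scan 2, and with scan as a block its estimate turned to 0.70. The polymerase delta genes, which serve the lagging strand, did not pass either. Pold1, the catalytic subunit, was at -1.08 ± 0.34 at 12 h and -0.08 ± 0.10 at 0 h (SD, n = 3 each; limma adjusted p = 0.110), and without 24 h replicate 2 the adjusted p was 0.00311. Pold2, its partner, was level, with -0.07 ± 0.25 SE between 12 h and 0 h.

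Of the clamp, clamp loader and single-strand binding genes, 3 of 9 fell at 12 h, Rpa1, Rfc1 and Rfc5, and 4 did without 24 h replicate 2. Rpa1, the large subunit of replication protein A, had -0.46, -0.24 and -0.43 at 0 h, -0.11, -0.97 and -0.80 at 1.5 h, -2.46, -2.41 and -2.29 at 12 h, and -0.88, 0.94 and -1.25 at 24 h. Its 12 h arrays were tight (SD 0.09) and far below all others, 4.03-fold below 0 h (-2.01 ± 0.48, limma adjusted p = 0.0188). Of its partners, Rpa2 was at -0.30 ± 0.40 SE between 12 h and 0 h, and Rpa3 at -0.76 ± 0.27 SE with an adjusted p of 0.0807 (limma), which was 0.0169 without 24 h replicate 2. Differences between subunits of a complex were not tested, here or below.

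Replication factor C loads the clamp with 5 subunits, of which Rfc1 and Rfc5 passed the test. Rfc1, the large subunit, had 1.75, 1.63 and 1.65 at 0 h, 1.65, 1.41 and 1.27 at 1.5 h, 0.25, 0.81 and 0.72 at 12 h, and 1.66, 2.33 and 1.65 at 24 h. It fell 2.12-fold at 12 h (-1.08 ± 0.27, limma adjusted p = 0.0221), with no overlap between the groups, and its 24 h arrays lay within or above the 0 h range. Rfc5 fell 2.08-fold, to -0.77 ± 0.07 at 12 h against 0.29 ± 0.10 at 0 h (SD, n = 3 each; limma adjusted p = 0.0347). Rfc2, Rfc3 and Rfc4 had log2 fold changes of -0.16, -0.01 and 0.10 at 12 h, each smaller than its standard error of 0.27, 0.44 and 0.30. Pcna, the sliding clamp itself, had 1.60, 1.62 and 1.96 at 0 h, 1.93, 1.96 and 2.37 at 1.5 h, 2.21, 1.96 and 2.39 at 12 h, and 1.94, 1.86 and 2.22 at 24 h. Its later arrays, from 1.86 to 2.39, overlapped the 0 h range, and no comparison passed (12 h against 0 h 0.46 ± 0.25 SE, limma adjusted p = 0.207).

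Lig1, the ligase that seals Okazaki fragments, fell 4.18-fold at 12 h, the 1 of 2 flap processing and ligation genes to pass in either fit. Its brighter probe had -1.26, -1.04 and -1.05 at 0 h, -0.94, -1.54 and -1.06 at 1.5 h, -2.88, -2.99 and -3.67 at 12 h, and -2.42, -1.71 and -2.04 at 24 h. The 12 h arrays lay below all others (-2.06 ± 0.30, limma adjusted p = 0.00149), and the other Lig1 probe gave -1.84 ± 0.32. Estimates for the brighter probe over 22 alternatives ran from -2.40 to -0.95. Fen1, the flap endonuclease that trims those fragments first, had 0.51, 0.11 and 1.14 at 12 h against 0.20, 0.36 and 0.39 at 0 h. Its groups overlapped and it did not pass (0.27 ± 0.38, limma adjusted p = 0.609).

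Of the nucleotide supply genes, Tk1 was the 1 of 4 that fell at 12 h, and without 24 h replicate 2 Tk1 and Rrm2 fell while Rrm1 and Tyms rose. Tk1 had 1.89, 2.52 and 2.29 at 0 h, 2.11, 2.36 and 2.63 at 1.5 h, -0.76, -1.46 and -1.27 at 12 h, and 0.76, -1.60 and -0.34 at 24 h. The 0 h and 1.5 h arrays overlapped, and every later array lay below the lowest of them. The fall at 12 h was 10.53-fold (-3.40 ± 0.49, limma adjusted p = 0.00151), and Tk1 passed the threshold in all 22 alternative settings, at -3.73 to -2.76. Rrm2, the S-phase subunit of ribonucleotide reductase, was at -3.27 ± 0.68 at 12 h and -2.14 ± 0.58 at 0 h (SD, n = 3 each; limma adjusted p = 0.0922), without overlap.

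Rrm1 and Tyms were higher at 12 h than at every 0 h array. Rrm1, the large subunit of ribonucleotide reductase, had 0.69, 0.94 and 0.40 at 0 h, 0.66, 0.98 and 0.90 at 1.5 h, 1.28, 1.70 and 1.43 at 12 h, and 0.63, -0.41 and 0.49 at 24 h. The difference of 0.80 ± 0.31 SE did not pass with all arrays (limma adjusted p = 0.103) and did without 24 h replicate 2 (adjusted p = 0.00973). Tyms, thymidylate synthase, had -3.11, -3.08 and -2.98 at 0 h, -3.17, -3.02 and -2.98 at 1.5 h, -2.34, -2.55 and -2.59 at 12 h, and -3.26, -4.05 and -3.38 at 24 h. Its 12 h arrays were the 3 highest of the 12, with a difference of 0.56 ± 0.25 SE from 0 h (limma adjusted p = 0.150, and 0.0156 without 24 h replicate 2). Within scan 2 both 12 h arrays exceeded both 1.5 h arrays for Rrm1 and for Tyms, each by 0.55.

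**Figure D3:**
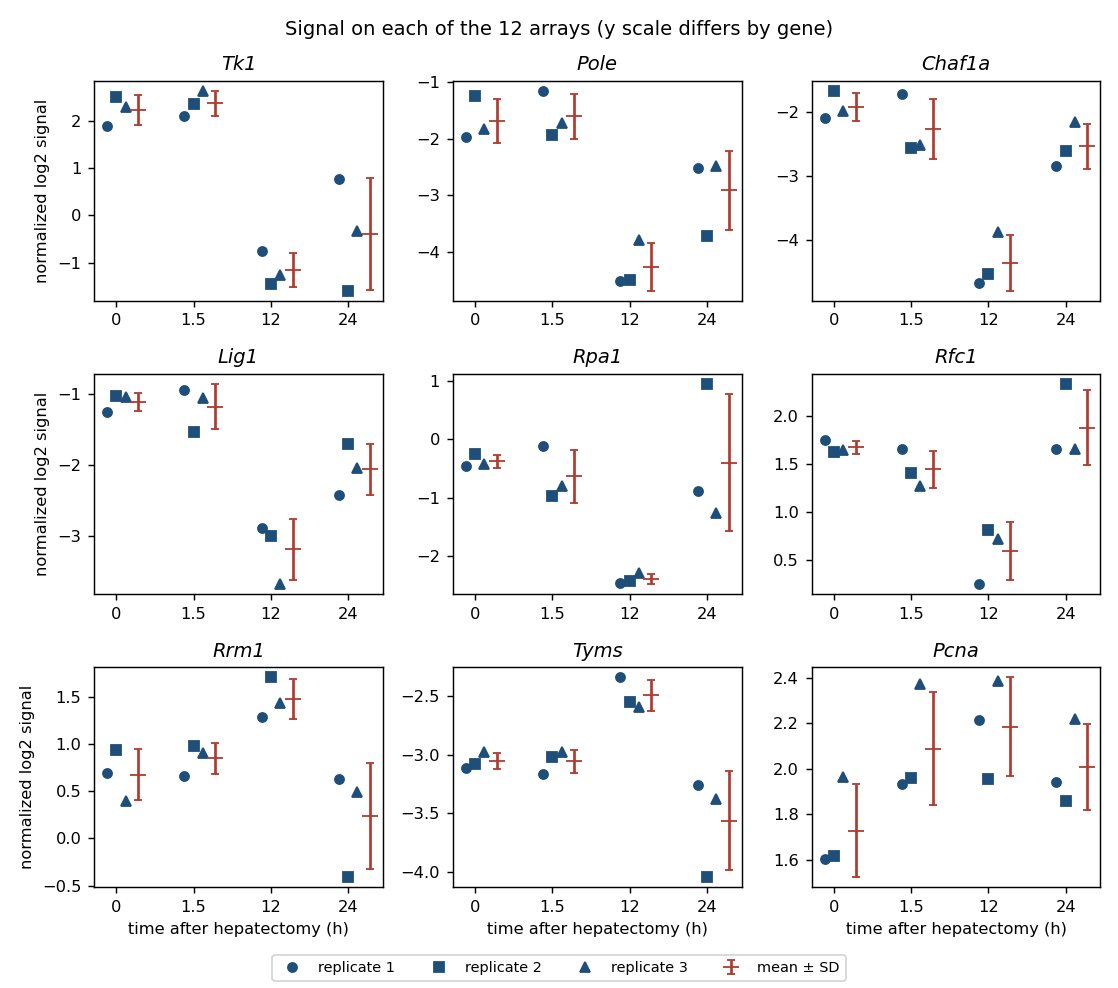
Normalized log2 signal of 9 genes on each array against time after hepatectomy, with the mean and SD of each time point (n = 3) in red and 1 symbol per replicate number. Tk1, Pole, Chaf1a, Lig1, Rpa1 and Rfc1 are lowest on average at 12 h, where Rrm1 and Tyms are highest, while the 12 arrays of Pcna stay between 1.60 and 2.39.

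Of the chromatin genes, 1 of 4, Chaf1a, fell at 12 h, with and without 24 h replicate 2. It encodes the large subunit of chromatin assembly factor CAF-1, which deposits histones on new DNA and binds the clamp. It had -2.10, -1.67 and -1.99 at 0 h, -1.72, -2.57 and -2.51 at 1.5 h, -4.68, -4.54 and -3.87 at 12 h, and -2.85, -2.61 and -2.15 at 24 h. The 12 h arrays lay below all others, 5.46-fold below 0 h on average (-2.45 ± 0.33, limma adjusted p = 0.00104). Over 22 alternatives the Chaf1a estimate ran from -2.99 to -0.47. Chaf1b, its partner in the same complex, had -2.40, -3.19 and -2.06 at 12 h against -2.52, -2.70 and -2.72 at 0 h. Its groups overlapped (0.09 ± 0.31, limma adjusted p = 0.836). Dnmt1, which copies methylation onto the new strand, differed by -0.05 ± 0.36 SE, and Uhrf1, which brings Dnmt1 to half-methylated sites, by -0.62 ± 0.31 SE, with adjusted p values of 0.915 and 0.194 (limma).

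Among origin and helicase genes 1 of 5 fell at 12 h, and 2 did without 24 h replicate 2. Gins4, a subunit of the helicase complex GINS, had -1.09, -1.65 and -1.40 at 12 h against -0.48, -0.11 and -0.27 at 0 h. The groups did not overlap (-1.09 ± 0.25, limma adjusted p = 0.0155). Gins2 was at -4.23 ± 0.21 at 12 h and -3.36 ± 0.34 at 0 h (SD, n = 3 each; limma adjusted p = 0.0696, and 0.0222 without 24 h replicate 2). Gins3 differed by 0.19 ± 0.24 SE and Orc6 by -0.23 ± 0.47 SE. Orc1, the ATPase subunit of the origin recognition complex, was well above background only on the 4 arrays of scan 2. Its level on every other array, 12 h replicate 3 included, is a bound. The measured means were -4.72 at 12 h and -5.75 at 0 h, which did not pass (limma adjusted p = 0.206). With each 0 h array raised to at least the lowest signal well above background, the difference was 1.09-fold. As 12 h replicate 3 was itself not well above background, this is no lower bound, and a rise is not shown.

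At 24 h some of these genes had risen above their 12 h level. Of the 32, 9 rose and 2 fell at 24 h against 12 h, beside 7.62% and 5.76% of named genes, and without 24 h replicate 2 the counts were 14 and 2, beside 10.3% and 6.91%. The comparison shares its 12 h arrays with that of 12 h against 0 h. The 9 that rose were Rpa1, Chaf1a, Pole, Gins2, Rfc1, Prim2, Lig1, Pole2 and Pola2, and the 2 that fell were Rrm1 and Tyms. The arrays of the 2 times did not overlap for 13 genes that were higher and 4 that were lower at 24 h, beside 17.3% and 22.4% of named genes, and without 24 h replicate 2 for 17 and 5, beside 24.7% and 29.6%. The median over the 32 was 0.56, where that of the named genes was -0.17. Within scan 3, 24 h replicates 1 and 3 can be set against 12 h replicate 3 alone. There the 11 kept their sign, from 1.46 for Gins2 to 0.66 for Pola2 and at -0.87 for Rrm1 and -0.73 for Tyms. These arrays had also entered the comparison that picked the 11, so the set is no separate test of them. On 12 h replicate 3, Gins2 and Pole2 were not well above background. No adjusted p was under 0.05 in that smaller set.

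Chaf1a was 3.56-fold higher at 24 h than at 12 h (1.83 ± 0.33, limma adjusted p = 0.0116), with -2.54 ± 0.35 at 24 h and -4.37 ± 0.43 at 12 h (SD, n = 3 each). Rfc1 was 2.45-fold higher (1.29 ± 0.27, adjusted p = 0.0192), and Gins2 2.47-fold (1.31 ± 0.30, adjusted p = 0.0249). Rpa1 was 3.98-fold higher with all arrays (1.99 ± 0.48, adjusted p = 0.0301) and at 1.32 ± 0.26 without 24 h replicate 2, whose value of 0.94 was far above the -0.88 and -1.25 of the other 24 h arrays. Pole, Prim2, Lig1, Pole2 and Pola2 had log2 fold changes of 1.36, 1.29, 1.12, 1.02 and 0.74, with adjusted p values between 0.0295 and 0.0487 (limma). Tk1 was at 0.77 ± 0.49 SE with all arrays (adjusted p = 0.240), and at 1.38 ± 0.35 without 24 h replicate 2 (adjusted p = 0.0280). The genes that passed only without that array were Tk1, Gins4, Pold1, Rfc2 and Rfc5.

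Rrm1 and Tyms, whose 12 h arrays were the 3 highest of the 12, fell at 24 h. Rrm1 was 2.36-fold lower at 24 h than at 12 h (-1.24 ± 0.31, limma adjusted p = 0.0324) and Tyms 2.10-fold lower (-1.07 ± 0.25, limma adjusted p = 0.0279). Without 24 h replicate 2, whose value was the lowest of the 12 arrays for both, the differences were -0.91 and -0.83 and both still passed.

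The rise at 24 h against 12 h did not hold in several other settings. With normexp background correction 0 of the 32 genes passed and Pole, Pole2, Lig1, Chaf1a and Gins2 changed sign. Without 12 h replicate 1 also 0 passed, and without 12 h replicate 2 only 2 did.

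At 24 h against 0 h, Tk1 and Uhrf1 fell and 0 of the 32 rose, with a median log2 fold change of -0.37. Tk1 was 6.16-fold lower (-2.62 ± 0.49, limma adjusted p = 0.0139), and its 24 h arrays ranged from -1.60 to 0.76 against 1.89 to 2.52 at 0 h. Uhrf1 was 2.44-fold lower, at -5.08, -5.22 and -5.03 at 24 h against -4.20, -3.41 and -3.86 at 0 h (-1.29 ± 0.31, limma adjusted p = 0.0392). Its 24 h replicate 3 was not well above background. Only the brightest of its 4 probes passed. The other 3 gave -1.85 to -1.28 with adjusted p values of 0.0517 to 0.189, and with scan as a block the estimate of the brightest turned to 0.060. Among named genes 2.45% were lower and 3.38% higher in this comparison. Without 24 h replicate 2, Lig1 (-1.11), Pola1 (-1.46) and Pole2 (-0.86) joined as lower, and Rfc2 was higher by 0.90 (limma adjusted p = 0.00891), beside 6.61% and 10.2% of named genes.

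At 1.5 h 0 of the 32 genes passed in either direction, beside 0.0353% of named genes that rose and 0% that fell. Without 24 h replicate 2 the count was also 0, beside 0.547% and 0.112%. Unadjusted, 1 gene had a p under 0.05 in limma, Chaf1b, whose 1.5 h arrays of -1.84, -2.28 and -1.64 lay above those of 0 h. The adjusted p values ran from 0.771 upwards, and over all 31168 probes 7 passed and 2001 had an unadjusted p under 0.05. In scan 1 the lone 1.5 h array had a median over the 32 genes of 0.07 relative to 0 h, and in scan 2 the other 2 arrays had -0.26 and -0.10.

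**Figure D4:**
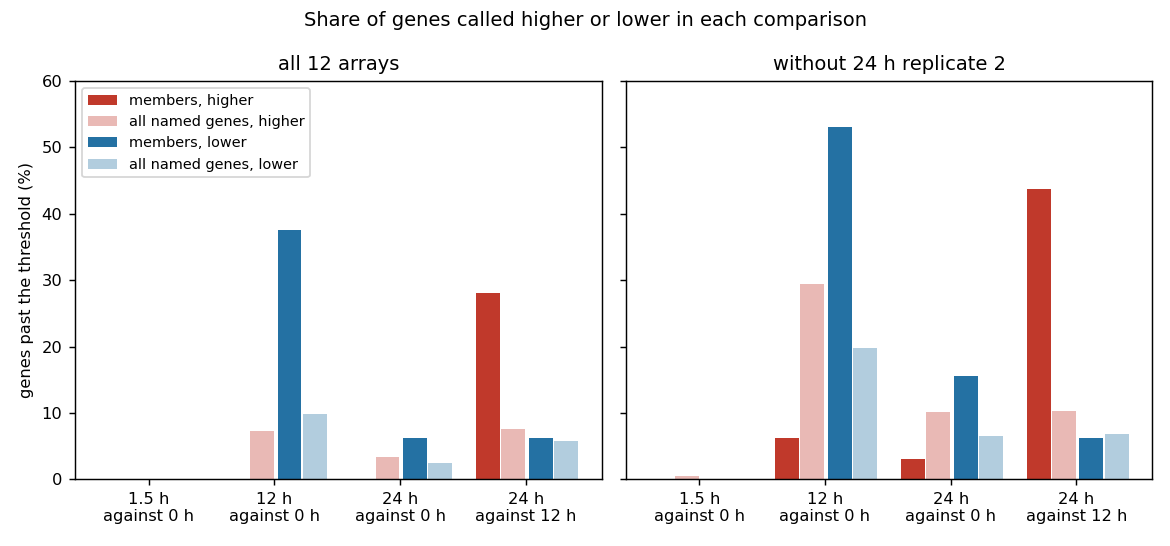
Percent of the 32 genes (full colour) and of all 16998 named genes (pale) that were higher (red) or lower (blue) past the threshold in each comparison, with all 12 arrays on the left and without 24 h replicate 2 on the right. At 12 h against 0 h the 32 genes have no red bar with all arrays and a blue bar of 12 of 32, beside 9.84% of named genes.

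Another 61 tested genes of replication, nucleotide metabolism and chromatin copying, out of 63 listed (Ppat and Tet3 were not tested), were set beside these. At 12 h 3 rose and 8 fell against 0 h, beside 7.34% and 9.84% of named genes. The fit without 24 h replicate 2 had 9 that rose and 21 that fell, beside 29.4% and 19.8%. Among the falls were Rnaseh2c, a subunit of the nuclease that removes ribonucleotides from DNA (-2.40 ± 0.30, limma adjusted p = 0.000956), Shmt1, the cytosolic serine hydroxymethyltransferase (-1.52 ± 0.32, adjusted p = 0.00944), and Dnmt3a, a de novo DNA methyltransferase (-1.64 ± 0.39, adjusted p = 0.0172). Orc2, another origin recognition subunit, rose by 1.89 ± 0.31 (limma adjusted p = 0.00290), Uck2, a uridine and cytidine kinase, by 1.66 ± 0.32 (adjusted p = 0.00629), and Ctps, CTP synthase, by 1.49 ± 0.43 (adjusted p = 0.0386).

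At 24 h against 12 h, 6 of the 61 rose and 3 fell, beside 7.62% and 5.76% of named genes, and without 24 h replicate 2 the counts were 7 and 4, beside 10.3% and 6.91%. Among those that rose on the log2 scale were Dck, deoxycytidine kinase (1.11), Samhd1, which degrades deoxynucleotides (1.21), and Topbp1, which helps to start replication (0.96), while Orc3 (-1.54), Hat1 (-1.41) and Hmgb2 (-1.03) fell. Against 0 h, Rnaseh2c (-2.35) and Rbbp7 (-1.11) were lower at 24 h, and Dtymk (1.08) and Dnmt3b (1.94) higher. These 2 lower and 2 higher genes stand beside 2.45% and 3.38% of named genes, and without 24 h replicate 2 there were 6 and 4, beside 6.61% and 10.2%.

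Markers of other liver cells were read on the same arrays. In whole liver, fewer cells of a type and less RNA per cell cannot be told apart. Beside the counts at 12 h against 0 h, 7.34% of named genes rose and 9.84% fell. Without 24 h replicate 2 these shares were 29.4% and 19.8%. Of 7 measured neutrophil genes 4 rose at 12 h and 0 fell (5 and 0 without 24 h replicate 2). Ngp was at 5.59, S100a8 at 4.94, S100a9 at 4.88 and Camp at 1.49. Mpo (1.15), Elane (0.29) and Prtn3 (-0.33) did not pass with all arrays, and the list's median was 1.49. The mean log2 signal over the 7 was -2.41 to -2.02 at 0 h and -0.89 to -0.87 at 1.5 h. It was 0.03 to 0.67 at 12 h and -0.74 to 0.15 at 24 h. Of 4 endothelial genes Kdr was lower at 12 h (-2.47), while Cdh5, Pecam1 and Stab2 had 0.55, 0.13 and -0.11 and the list's median was 0.01. Cdh5 was called higher as well without 24 h replicate 2. The endothelial list had means of 1.63 to 1.82 at 0 h, 1.32 to 1.73 at 1.5 h, 1.05 to 1.44 at 12 h and 1.62 to 1.94 at 24 h. Of 7 Kupffer cell genes Csf1r (-1.27) and Vsig4 (-1.07) were lower at 12 h and Marco higher (2.44), 4 being lower and 1 higher without 24 h replicate 2, with list means of 0.39 to 1.21, 0.74 to 1.47, 0.25 to 0.40 and 0.63 to 1.85 at 0, 1.5, 12 and 24 h. Of 6 erythroid genes Epor was lower at 12 h (-2.62), 2 being lower and 2 higher without 24 h replicate 2, with list means of -0.25 to -0.16, -0.02 to 0.22, -0.59 to -0.45 and -1.20 to 0.20. Of 6 lymphocyte genes Ms4a1 was lower (-1.89), while Cd3e, Cd3d, Cd4 and Cd8a had 1.23, 0.74, 0.35 and 0.31 and the list's median was 0.33. Cd3e was called higher without that array. The lymphocyte list had means of -2.22 to -1.94, -2.11 to -1.78, -2.10 to -1.91 and -3.95 to -2.26. Of the 8 hepatocyte genes Ttr was lower at 12 h (-1.93), Tat being called higher as well without 24 h replicate 2, with list means of 7.03 to 7.13, 7.20 to 7.68, 6.85 to 7.35 and 6.29 to 6.71. The lists' Emr1 (an older name of Adgre1), Ltf, Hbb-b1 and Cd79a were not tested. Whether these cell types carry the falls at 12 h was not tested.

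No marker of dividing cells was called lower at 12 h against 0 h. Of 6 (Mki67, Top2a, Ccnb1, Cdk1, Aurkb, Plk1), of which Top2a also stands among the 61, Aurkb rose at 12 h (1.07) and 0 fell, and the mean log2 signal over the 6 was -3.01 to -2.67 at 0 h, -2.56 to -2.12 at 1.5 h, -2.27 to -1.91 at 12 h and -3.90 to -2.51 at 24 h. Without 24 h replicate 2, 4 of the 6 were called higher at 12 h than at 0 h and 0 lower, beside 29.4% and 19.8% of named genes. Mki67 had -0.32 at 12 h against 0 h and did not pass, while the other markers of this list lay above their 0 h level.

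The scaling of the arrays moved the median of all probes. At 12 h against 0 h it was 0.42 on the scale used here and 0.15 after quantile normalization, while the median of the 32 genes was -0.82 and -1.04. Under quantile normalization the 12 genes kept their fall, and Gins2, Pold1 and Rrm2 fell as well, while Rrm1 rose. With normexp background correction the median of the 32 was -0.16, and Tk1 was the only one of them to pass.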

How the data were processed

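Mouse liver RNA of 12 samples was hybridised to 1-colour (Cy3) Agilent arrays, 1 array per sample, in 4 groups of 3 by the labels. Per the file headers, the authors' scanner files hold intensities read by Agilent Feature Extraction 10.5.1.1, background-subtracted and detrended within each array and not normalized between arrays. A second deposited table gives the authors' log2 values of 20271 probes. Its column medians run from 8.91 to 8.94, and how it was normalized is not given in the sources used here, so it served as an alternative. The labels give 3 mice per time point but tie no array to a mouse, so the spread behind a p-value may be technical.

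Control and outlier spots were left out, the spots of a probe averaged, and log2 processed intensity taken minus each array's 75th percentile. Probes well above background on at least 3 of the 12 arrays were kept. limma 3.58.1 in R 4.3.3 fitted 1 mean per time point to all 12 arrays, with empirical Bayes moderation, Benjamini-Hochberg adjustment over 31168 probes and a threshold of 0.05. The number of arrays limits the precision. A gene was called by its brightest probe. For the 1.09-fold of Orc1, each 0 h array was given the higher of the probe's signal and the lowest signal well above background. Alternatives were normexp background correction with an offset of 50 (on median spot signals), quantile normalization, the authors' log2 values, other probe filters, robust moderation, replicate and scan blocks, within-scan values, a fit of the compared groups alone, and dropping each array in turn. The within-scan set of 12 h against 1.5 h, and the use of the fit without 24 h replicate 2 beside the counts of called genes, were chosen after seeing the data.

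All members could be named, and of the 63 companion genes up to 4 per direction and comparison with the smallest adjusted p, except that 1 companion gene and 1 marker gene are not reported here by name. The members, companion lists and markers were chosen with earlier results of these data known. Promoter sequences are from RefSeq, build GRCm38.p6. Deposited values used here have no depth in reads.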

Additional observations from a re-analysis of the deposited data

How the results depend on the processing

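Among the 32 genes, the count of falls at 12 h against 0 h stood at 12, and was 1 with normexp background correction and 4 with scan as a block, and the count of rises, 0 with all arrays, was 1 with quantile normalization, 1 with the authors' log2 values and 3 with only the groups compared. At 24 h against 0 h, 2 fell, and 0 did with normexp, with scan as a block and with only the groups compared, and 1 with quantile normalization, with the authors' log2 values, without a filter on dim probes, with a filter on all 12 arrays, with robust moderation and with the replicate block. At 24 h against 12 h, 9 rose, and 0 did with normexp, within scan and with only the groups compared, 2 with the replicate block and 5 without a filter on dim probes, while 2 fell, and 0 did with normexp, the replicate block, scan as a block, within scan and with only the groups compared, and 1 with quantile normalization and with the authors' log2 values. With normexp, Pole (-0.52), Pole2 (-0.59), Lig1 (-0.0090), Chaf1a (-0.18) and Gins2 (-0.42) were reversed at 24 h against 12 h, and with scan as a block Uhrf1 (0.060) at 24 h against 0 h. The causes were not tested, except that within scan and with only the groups compared fewer arrays were used.

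Leaving out each array in turn gave 6 to 17 falls and 0 to 2 rises at 12 h against 0 h. The falls were 7, 6 and 7 without 0 h replicates 1, 2 and 3, 7 without 12 h replicate 1 or 2, and 17 without 24 h replicate 2. It gave 0 to 5 falls and 0 to 1 rises at 24 h against 0 h, with 0 falls without 0 h replicate 2 or 3, and 0 to 14 rises and 0 to 2 falls at 24 h against 12 h. There the rises were 3, 3 and 4 without 0 h replicates 1, 2 and 3, 5 without 1.5 h replicate 2 or 3 and without 12 h replicate 3, 0 and 2 without 12 h replicates 1 and 2, and 14 without 24 h replicate 2.

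Same-numbered arrays were no more alike than others. Over 18 same-numbered pairs the deviations correlated at -0.42 to 0.41, with 2 of 18 above 0.1. Over 36 pairs of different numbers they ran from -0.49 to 0.51, with 11 above 0.1. So few arrays do not settle whether the samples were paired. With the replicate block 11 genes fell at 12 h against 0 h. Over the values of single genes, 364 kept their side of the threshold, 181 kept their direction only and 6 were reversed. Counts of companion genes were compared over pairs of a comparison and an alternative. They moved by over 1.5 times, or to or from 0, in 39 pairs, and by less or not at all in 51. At 12 h against 0 h 11 were called, and 5 to 30 when an array was left out. Signal over background limits Orc1 and Dut most.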
